A study of Mus musculus with 135 samples.

Results

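DNA methylation in haematopoietic stem cells (HSCs) was followed here through 9 genes, the methyltransferases *Dnmt1*, *Dnmt3a* and *Dnmt3b*, the cofactor *Uhrf1*, the oxidases *Tet1*, *Tet2* and *Tet3*, and the dehydrogenases *Idh1* and *Idh2*. They were taken by name from a table of 15181 RefSeq genes, which held all 9, and were chosen with earlier results of these data known. The cells were single HSCs sorted as LSK CD150+CD48- (Lin-Sca1+Kit+ bone marrow cells) from Vwf-EGFP reporter mice on a C57BL/6 background, and both ages carried the reporter. The young group was 1 mouse of 2 to 3 months (61 cells) and the old group 1 mouse of 20 to 25 months (74 cells), each on its own microfluidic capture run. The 52 young and 62 old cells that met the quality limits of the study were compared.

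Methylation of CpG sites is copied to new DNA strands at replication by DNMT1, which UHRF1 guides to hemimethylated sites. DNMT3A and DNMT3B set methylation on sites that carried none. TET enzymes oxidise methylcytosine, the first step of its removal, and need 2-oxoglutarate, which IDH1 makes in the cytosol and IDH2 in mitochondria. Loss of *Dnmt3a* or *Tet2* is known to expand mouse HSCs, and *DNMT3A*, *TET2*, *IDH1* and *IDH2* are recurrently mutated in human myeloid leukaemia.

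The genes lie on 9 different chromosomes, and positions are those of RefSeq on GRCm38, the assembly called mm10 by the study. *Dnmt1* spans chr9:20907206-20959888 (minus strand), *Dnmt3a* chr12:3801559-3914443 (plus), *Dnmt3b* chr2:153649411-153687730 (plus) and *Uhrf1* chr17:56303337-56323486 (plus). *Tet1* spans chr10:62804570-62887469, *Tet2* chr3:133463677-133545136 and *Tet3* chr6:83362373-83457208, all on the minus strand. *Idh1* spans chr1:65158616-65186479 and *Idh2* chr7:80094845-80118608, both on the minus strand. The antisense gene *Dnmt3aos* overlaps *Dnmt3a* and has its own entry in the table, and as no source says whether strand was used in counting, reads of the pair cannot be told apart. *Dnmt3b*, *Tet2* and *Tet3* also have opposite-strand neighbours within their spans, which have no entry of their own in the table, and *Dnmt3a* has a processed copy elsewhere, *Dnmt3a-ps1*.

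Promoters were searched for words bound by E2F, a factor family of the G1 to S transition, and for the words TTTGAA and CCAAT. RefSeq lists 15 promoters for the 9 genes (250 bases before to 50 after a start site). Both strands were searched, and the E2F words were TTTCCCGC, TTTCGCGC, TTTGCCGC and TTTGGCGC. An E2F word was found in 2 promoters, the third listed for *Dnmt1* and the second listed for *Uhrf1*, and in 2.26% of 32851 mouse promoters of that length. The other 7 genes had no E2F word in any listed promoter. TTTGAA was found in the first *Dnmt1* promoter and the *Dnmt3b* promoter, and in 17.9% of mouse promoters. CCAAT was found in promoters of *Dnmt1*, *Uhrf1*, *Tet3*, *Idh1* and *Idh2*, and in 37.4% of mouse promoters. The first 120 bases of 3 promoters are printed 5' to 3' along the gene (bases -250 to -131 from the start site), with E2F words in capitals. *Dnmt1* and *Uhrf1* are shown because they hold the E2F words, and *Idh2* because its level differed most between the ages.
Dnmt1, the third promoter, GRCm38 chr9:20952754-20952873, minus strand: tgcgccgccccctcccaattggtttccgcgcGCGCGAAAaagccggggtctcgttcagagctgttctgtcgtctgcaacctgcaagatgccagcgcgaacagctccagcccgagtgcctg
Uhrf1, the second promoter, GRCm38 chr17:56304063-56304182, plus strand: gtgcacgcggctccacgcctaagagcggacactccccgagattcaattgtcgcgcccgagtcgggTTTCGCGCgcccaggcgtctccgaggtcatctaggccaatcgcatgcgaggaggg
Idh2, GRCm38 chr7:80115481-80115600, minus strand: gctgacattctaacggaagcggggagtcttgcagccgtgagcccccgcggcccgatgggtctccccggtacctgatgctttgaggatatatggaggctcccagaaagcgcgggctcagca
The E2F word in *Dnmt1* starts at -219 and is read on the opposite strand, and that in *Uhrf1* starts at -185. Another E2F word in the *Dnmt1* promoter, TTTGGCGC, starts 34 bases into the transcript and lies outside the window shown. The windows also differed in CpG content, from 2 CpG in the first *Dnmt1* promoter to 57 in the *Tet2* promoter, against a median of 7 over all promoters.

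Between 273236 and 5688706 reads were counted per young cell (median 2798990) and between 276316 and 4086659 per old cell (median 2116024). Levels are log2(CPM + 1), where CPM is counts scaled to 1000000 reads counted in the cell, and a cell with a level above 2 is called an expressing cell. Of the markers of the sort, *Kit* was expressed in 49 young and 61 old cells, *Ly6a* (Sca1) in 28 and 43, *Slamf1* (CD150) in only 9 and 15, and *Cd48* in 1 and 0 (0 of 62 allows up to 3 cells). Of 26 markers of other blood cells 13 were in the table, and 4 of these were expressed in at least 10% of cells. The mean level of the 13 in a cell ranged from 0.00 to 1.95 in young and from 0.00 to 2.49 in old cells. The 4 were *Cd79b* of B cells (12 young and 16 old cells), *Nkg7* of cytotoxic lymphocytes (10 and 15), and *Gp9* (14 and 24) and *Pf4* (5 and 11) of the megakaryocyte lineage, and their part in the differences given here was not tested. *Klrd1* and *Hba-a1* had no expressing cell in either age. Sex-linked genes were unlike in both mice, as 50 young but only 8 old cells expressed *Xist*, while 2 young and 58 old cells expressed any of 4 genes of the Y chromosome. Age, mouse, any difference between the experiments and these sex-linked differences cannot be told apart. With 1 mouse per age, cells are not replicates, so no p-value is given. Intervals on shares (95%, exact Clopper-Pearson) and on summed reads (95%, exact Poisson) cover counting error only.

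All 9 genes had a lower mean level in the old cells, and 5 of them differed by at least 1 on the log2 scale: *Idh2*, *Uhrf1*, *Dnmt3a*, *Dnmt1* and *Tet2*. Over the 9374 genes that passed the expression limit in 10% of the cells or more, 6.98% were lower in old cells by at least 1 and 6.24% higher by at least 1. None of the 9 genes was higher by that much. The median difference was -1.26 over the 9 genes and -0.07 over all 9374, of which 55% lay below 0. An old cell expressed a mean of 3.61 of the 9 genes and a young cell 5.33, and after each cell was thinned to 250000 reads the means were 3.94 and 5.46. Counted over all genes, the median number expressed per cell was 3901.5 in old and 4115.5 in young cells. After thinning these medians were 4220 and 4316.5. At least 6 of the 9 genes were expressed in 24 young and 12 old cells, and at most 2 in 2 young and 18 old cells.

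**Figure D1:**
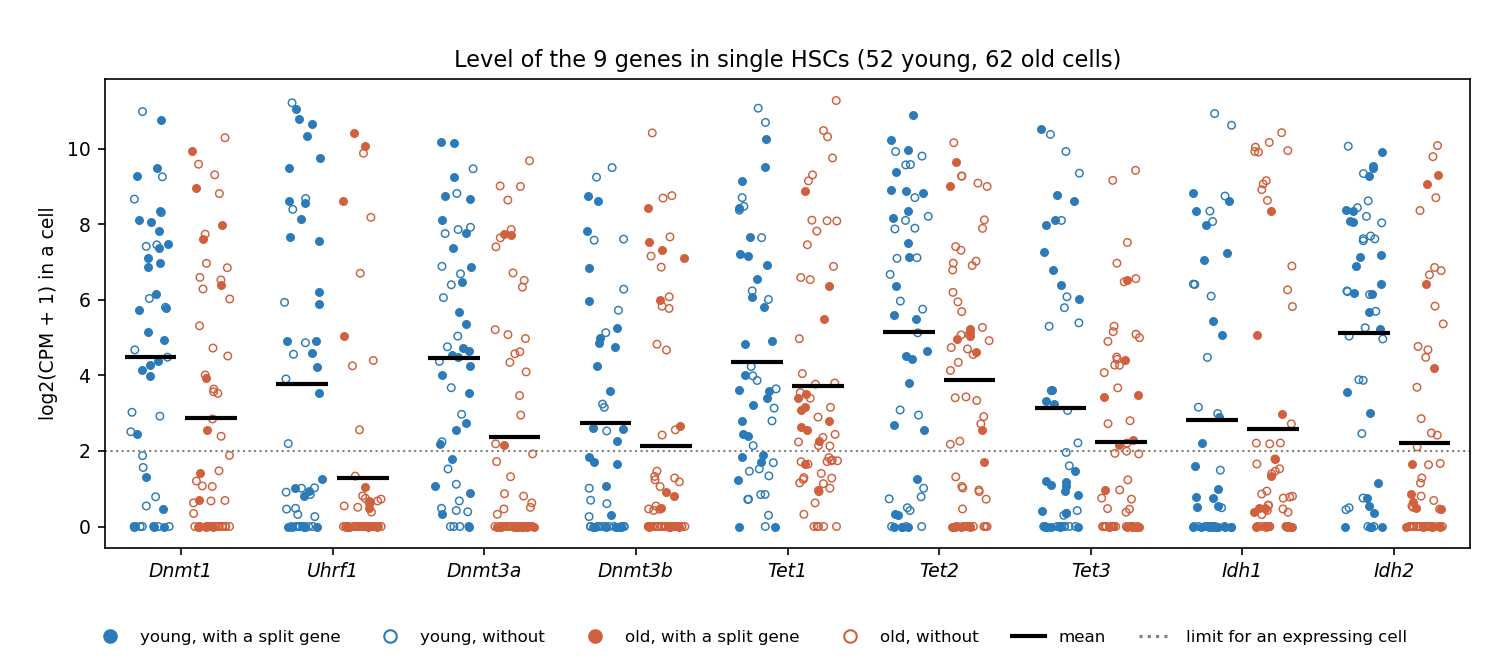
Level of each gene in single cells, as log2(CPM + 1) on the vertical axis, for 52 young (blue) and 62 old (orange) cells; filled points are cells expressing any of Ccna2, Ccnb1, Cdk1 and Cdc25c, bars are means and the dotted line is the limit of 2. Both ages spread from 0 to high levels for every gene, and the old means lie lower, furthest for Idh2 and Uhrf1.

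Among the writers, *Dnmt1*, the maintenance methyltransferase, ranged from 0 to 10.99 in young cells with a median of 4.58 and from 0 to 10.30 in old cells with a median of 1.14. Its summed reads were 27256 (interval 26933 to 27582) over the young cells and 11642 (11432 to 11855) over the old. The ages overlapped over almost the whole range, and the separation lay in how many cells expressed the gene. Expressing cells made up 67.3% of young (35 of 52, interval 52.9 to 79.7%) and 43.5% of old cells (27 of 62, 31 to 56.7%). The 2 intervals overlapped. Mean levels were 4.48 ± 3.45 (SD over 52 cells) and 2.87 ± 3.35 (SD over 62 cells), a difference of -1.60 that ranked 136 from the lowest among the 9374 genes.

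*Uhrf1*, whose protein reads hemimethylated CpG, ranged from 0 to 11.22 in young cells with a median of 1.73, and from 0 to 10.41 in old cells with a median of 0. Expressing cells were 26 of the 52 young (35.8 to 64.2%) and 10 of 62 old cells (16.1%, 8.02 to 27.7%). The old cells that did express it reached levels like those of the young, with medians among expressing cells of 7.45 and 7.62. Mean levels were 3.77 in young and 1.28 in old cells, a difference of -2.49 that ranked 8 from the lowest. Of the 9210 old reads, 46.9% came from 1 cell, G9, which also held the most *Dnmt1* reads of any old cell.

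*Dnmt3a*, the de novo methyltransferase whose loss expands HSCs, ranged from 0 to 10.18 in young cells (median 4.51) and from 0 to 9.69 in old cells (median 0.39). Expressing cells were 37 of 52 young (71.2%, 56.9 to 82.9%) and 23 of 62 old (37.1%, 25.2 to 50.3%). Here too the level among expressing cells was alike, with medians of 6.06 in young and 6.34 in old. The difference of means was -2.10, rank 25 from the lowest. *Dnmt3b*, its relative, was expressed in 24 young cells (46.2%, 32.2 to 60.5%) and 19 old cells (30.6%, 19.6 to 43.7%), and its intervals overlapped. Its means were 2.74 and 2.14, a difference of -0.60, and 37.3% of its 7706 old reads came from 1 cell, B3.

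The 3 methyltransferases were also counted together in each cell. Cells without any of them numbered 3 of 52 in the young and 13 of 62 in the old mouse, and cells with all 3 numbered 13 and 4.

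The TET genes differed between the ages less in the share of expressing cells than in their level. *Tet2* ranged from 0 to 10.90 in young cells with a median of 5.67 and from 0 to 10.16 in old cells with a median of 4.24. It was expressed in 37 of 52 young (71.2%, 56.9 to 82.9%) and 40 of 62 old cells (64.5%, 51.3 to 76.3%), shares whose intervals overlapped widely. Among expressing cells its median was 7.50 in young and 5.19 in old, and the difference of means over all cells was -1.26, rank 336 from the lowest. It was -0.49 among cells with 3500 to 4500 expressed genes, a range chosen after the data were seen.

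*Tet3* showed the same form at a lower level. Expressing cells were 44.2% of young and 41.9% of old, their medians were 6.39 and 4.46, and the difference of means was -0.90. *Tet1* was the most widely detected of the 9, with at least 1 read in 49 of the 52 young cells and 57 of the 62 old ones, and was expressed in 36 young (69.2%) and 38 old cells (61.3%), with medians among these of 5.91 and 3.92. Its means were 4.37 and 3.71, a difference of -0.66, but in summed reads the direction turned to 0.13, with 1 old cell, E10, giving 29.4% of the old reads. Without the cell richest in *Tet1* in each age the summed difference was -0.34. No TET gene was expressed in 2 young and 4 old cells, and all 3 in 8 and 9 cells.

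*Idh2*, the mitochondrial dehydrogenase, had the largest difference of the 9 genes. It ranged from 0 to 10.07 in young cells (median 6.15) and from 0 to 10.09 in old cells (median 0.53). Expressing cells were 38 of 52 young (73.1%, 59 to 84.4%) and 21 of 62 old (33.9%, 22.3 to 47%). These intervals cover counting error only, not spread between mice. The highest levels of the ages were alike, while the middle of the old cells lay near 0. The upper quartile was 8.05 in young and 4.07 in old cells, and the median among expressing cells 7.16 and 5.84. Mean levels were 5.12 ± 3.39 (SD over 52 cells) and 2.22 ± 3.09 (SD over 62 cells), a difference of -2.90 that ranked 4 from the lowest of 9374. In summed reads (25565 young, 6595 old) the difference was smaller, at -1.73.

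*Idh1*, the cytosolic enzyme, did not follow it. It was expressed in 21 young (40.4%, 27 to 54.9%) and 20 old cells (32.3%, 20.9 to 45.3%), with means of 2.83 and 2.59 and a difference of -0.24. One young cell, B5, held 43.8% of the young *Idh1* reads. In summed reads the difference was 0.13, and without the cell richest in *Idh1* in each age it was 0.91, so the direction rested on the summary. Neither dehydrogenase gene was expressed in 9 young and 30 old cells, and both in 16 young and 9 old cells.

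Levels of different genes were compared per kilobase of exon, as log2(CPM per kb + 1). Exon lengths were those of the GENCODE annotation, whereas reads had been counted on RefSeq genes. In young cells the order of the mean was *Idh2* (4.52), *Tet2* (2.94), *Uhrf1* (2.76), *Dnmt1* (2.73), *Idh1* (2.26), *Dnmt3a* (2.24), *Tet1* (1.86), *Dnmt3b* (1.74) and *Tet3* (1.52). In old cells it was *Idh1* (2.04), *Tet2* (1.95), *Idh2* (1.90), *Dnmt1* (1.68), *Tet1* (1.5), *Dnmt3b* (1.40), *Dnmt3a* (1.16), *Uhrf1* (0.90) and *Tet3* (0.86). Neighbours in both orders had overlapping quartile ranges, also *Idh2* (0.70 to 7.25) and *Tet2* (0.14 to 5.08) in young cells. *Idh2* and *Uhrf1* moved furthest down the order, from place 1 and 3 to place 3 and 8, and *Tet3* was last in both ages.

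The cells of each age were then split by *Ccna2*, *Ccnb1*, *Cdk1* and *Cdc25c*, which encode cyclins, the kinase and the phosphatase of mitotic entry. A cell with a level above 2 for any of the 4 was counted as having a split gene, which held for 27 of 52 young and 13 of 62 old cells. The study had named these 4 genes as expressed in more of its young HSCs, from the same cells as here. The counts by age thus follow from that choice and are no separate result. *Cdk1* passed in 21 young and 7 old cells, *Ccnb1* in 11 and 4, *Cdc25c* in 12 and 3, and *Ccna2* in 11 and 2. In 8 of the 13 old cells the split gene was *Ccnb1* or *Cdk1* alone and in 2 *Cdc25c* alone. In the young mouse the cells with a split gene also expressed more genes (median 4614 against 3862), and in the old mouse the medians were 3760 and 3939.

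In young cells, *Uhrf1* had the largest difference of the 9 genes across the split when all 52 cells were used. It ranged from 0 to 11.06 with a median of 4.92 in the 27 cells with a split gene, and from 0 to 11.22 with a median of 0.48 in the 25 without. It was expressed in 18 of 27 (66.7%, 46 to 83.5%) and 8 of 25 cells (32%, 14.9 to 53.5%). The ranges overlapped fully, and the difference of means was 3.02, higher than in 99.6% of the 9374 genes. *Dnmt1* was expressed in 22 of 27 and 13 of 25 cells, with means of 5.42 and 3.45 (difference 1.97). *Dnmt3a* was also expressed in 22 of 27 and 15 of 25 cells, with means of 5.06 and 3.82 (difference 1.23), which fell to 0.39 when each cell was thinned to 250000 reads.

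These 3 of the 9 genes were higher by at least 1 in young cells with a split gene, against 20.2% of all genes, and none was lower by at least 1, against 3.87%. The median of all genes was itself 0.25 in this comparison, so a difference of that size was the common one. *Tet1* (0.67), *Dnmt3b* (0.45), *Tet3* (0.38) and *Tet2* (0.12) lay near it. *Idh2* (-0.52) and *Idh1* (-0.58) lay below 0, and 12.1% and 10.5% of genes lay lower than they did. The larger number of genes expressed in the young cells with a split gene moved with these differences, and its part in them was not tested. Among young cells with 3500 to 4500 expressed genes, a range chosen after the data were seen, 10 had a split gene and 18 did not. There *Uhrf1* differed by 1.5, *Dnmt1* by 1.72 and *Dnmt3a* by 2.19. *Idh2* (-1.47) and *Idh1* (-2.09) were lower by at least 1 in the cells with a split gene. Those were the lowest values over 8 alternatives. The highest were 0.62 for *Idh2*, when the split required a level above 4, and -0.38 for *Idh1*.

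**Figure D2:**
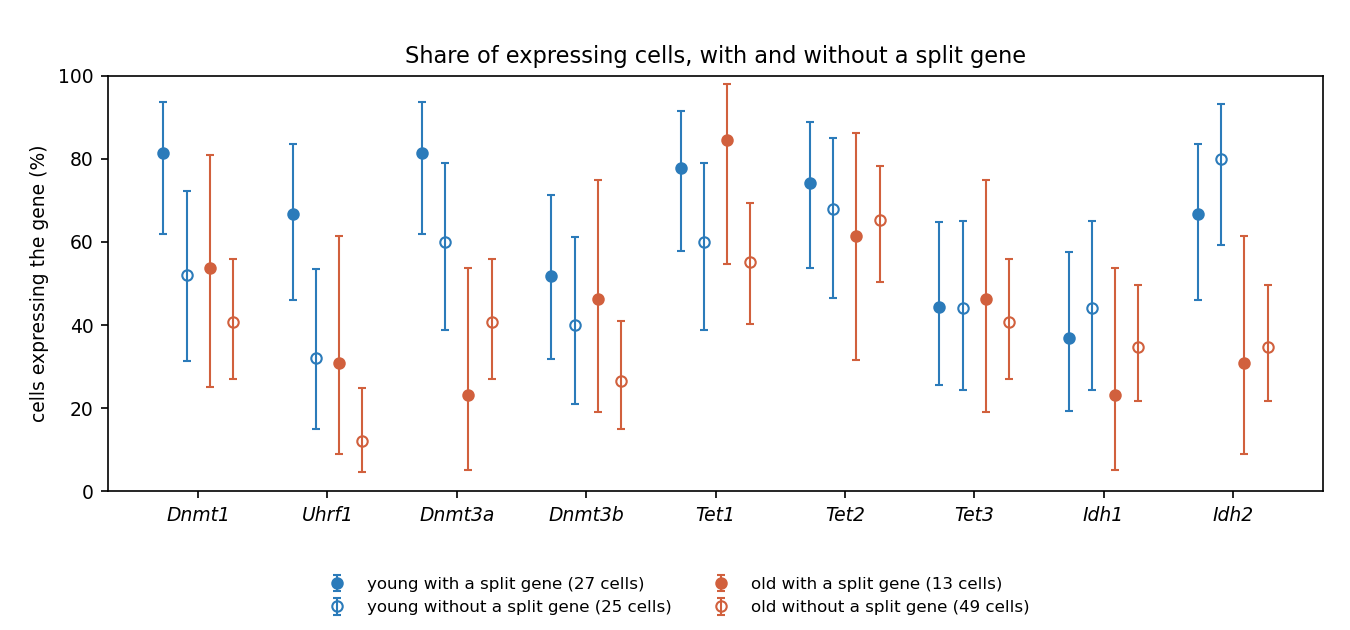
Share of cells expressing each gene, in percent, with exact 95% intervals, for young (blue) and old (orange) cells with (filled) and without (open) a split gene. For Idh2 both young shares (66.7% and 80.0%) lie above both old shares (30.8% and 34.7%), whereas the Uhrf1 share is higher with a split gene in both ages.

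In old cells the split rested on 13 cells. *Uhrf1* was expressed in 4 of the 13, at 10.41, 10.08, 8.63 and 5.03, and in 6 of the 49 others, with means of 2.85 and 0.86 (difference 1.99). These 4 cells also expressed *Dnmt1*, and 3 of them had passed the split through *Cdk1*. *Dnmt1* differed by 1.18 and *Dnmt3b* by 1.31, so that 3 of the 9 genes were higher by at least 1, against 11.8% of all genes. *Dnmt3a* (3 of 13 against 20 of 49 cells, difference -1.28) and *Idh1* (3 of 13 against 17 of 49, difference -1.24) were lower by at least 1, against 7.96% of all genes. *Dnmt3a* thus lay on opposite sides of 0 in the young and old mice, a contrast that was not tested and in which the interval for the old cells with a split gene, 5.04 to 53.8%, was wide. The *Dnmt3b* difference turned to -0.41 when the split required a level above 4, which 7 old cells met.

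The ages were compared again among the 25 young and 49 old cells without a split gene. Some of these cells still had reads of a split gene. *Cdk1* was read in 11 young and 9 old cells, *Ccnb1* in 7 and 1, *Cdc25c* in 6 and 1, and *Ccna2* in 5 and 0. The part of such reads was not tested. All 9 genes again had lower means in old cells, and *Idh2* (-3.25), *Uhrf1* (-1.34), *Dnmt3a* (-1.19) and *Tet2* (-1.15) by at least 1, where 6.28% of all genes were lower and 11.8% higher by that much. The median was -0.83 over the 9 genes and 0.06 over all genes. *Idh2* ranked 3 from the lowest, with 20 of 25 young cells (80.0%, 59.3 to 93.2%) and 17 of 49 old cells (34.7%, 21.7 to 49.6%) expressing it. Its difference was thus not smaller without the cells that held a split gene. Over 8 alternatives it lay between -4.57 and -2.68. The difference of *Uhrf1* lay between -2.34 and -0.74, the latter when the cells outside the quality limits were included. That of *Tet2* was close to its value in all cells, -1.26. It was -0.81 when the split required a level above 4 and -0.62 after thinning to 250000 reads. Among cells with 3500 to 4500 expressed genes it was -0.02. The number of the 9 genes lower by at least 1 lay between 3 and 6 over the 8 alternatives.

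For *Uhrf1*, *Dnmt3a* and *Dnmt1* the difference between the ages was nearer to 0 among these cells than among all cells, by 1.15, 0.91 and 0.78. *Dnmt1* came to -0.83 and lay between -1.28 and -0.78 over 8 alternatives, on either side of -1. In the 27 young and 13 old cells with a split gene, 8 of the 9 genes had lower means in the old, from -3.70 for *Dnmt3a* to -0.94 for *Idh1*, and *Dnmt3b* was at 0.22. Over all 9374 genes 56.5% lay below 0 in this comparison, with a median of -0.14.

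**Figure D3:**
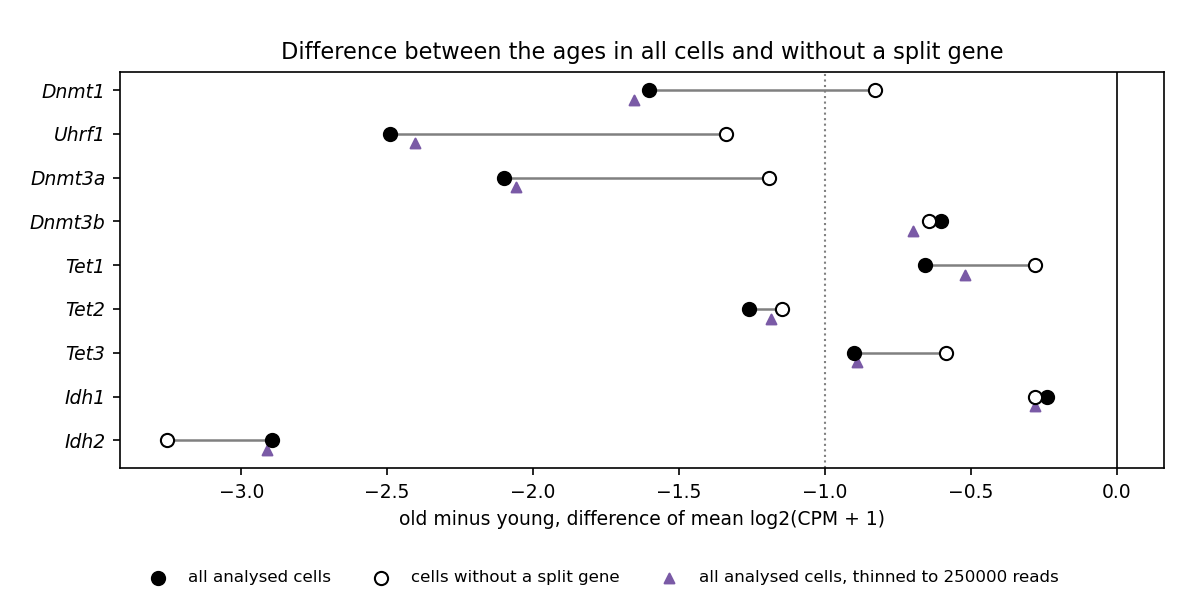
Difference between old and young mean log2(CPM + 1) for each gene in all analysed cells (filled circles), in cells without a split gene (open circles) and in all cells after thinning to 250000 reads (triangles). Idh2 stays near -3 in all 3, Uhrf1, Dnmt3a and Dnmt1 lie nearer to 0 without a split gene, and thinning moves no gene far.

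Within each age, cells were also compared by how the genes varied together, as Pearson r of log2(CPM + 1). It was taken over 52 young or 62 old cells that share their mouse. Of the 36 pairs of the 9 genes, r was at least 0.3 for 1 pair in young cells, *Dnmt1* with *Dnmt3a* (0.31), and 3 pairs in old cells. The highest was *Dnmt1* with *Uhrf1*, at 0.60 in old and 0.29 in young cells. In old cells 9 of the 10 cells expressing *Uhrf1* also expressed *Dnmt1*, and in young cells 22 of 26 did. The other old pairs were *Uhrf1* with *Idh2* (0.48) and *Tet3* with *Idh1* (0.42), and these had r of 0.19 and 0.12 in young cells.

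**Figure D4:**
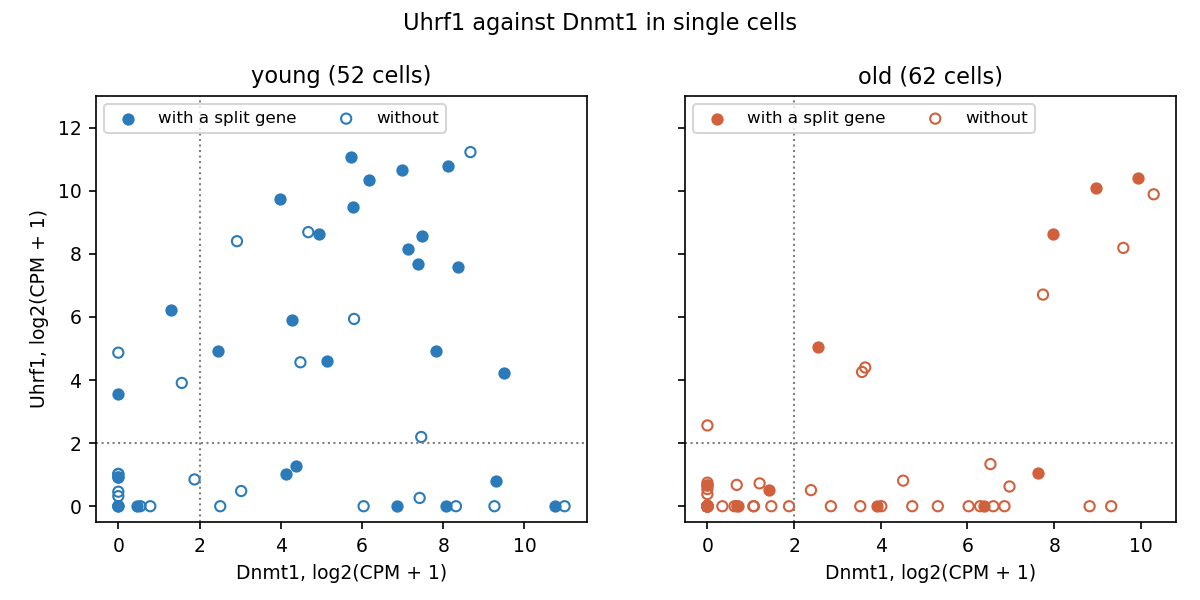
Uhrf1 against Dnmt1 in single cells, both as log2(CPM + 1), for 52 young (left) and 62 old (right) cells, with the limit of 2 dotted and cells with a split gene filled. In the old cells 9 of 10 cells above the limit for Uhrf1 are also above it for Dnmt1.

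Over the 9374 genes, *Uhrf1* alone among the 9 had genes whose pattern was alike in both ages at a mean r of at least 0.5. Among the most alike were *Lig1*, the DNA ligase of lagging strand synthesis (0.64 in young, 0.80 in old cells), and *Cdt1*, which licenses replication origins (0.61 and 0.81).

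Genes around the 9 were described by lists. Over all 9374 genes, 6.98% were lower and 6.24% higher in old cells by at least 1. Of the partners of maintenance methylation, 8 of 10 were in the table and expressed, and 5 of these were lower in old cells by at least 1, with a median of -1.17. They were *Lig1* (-2.04), the chromatin remodeller *Hells* (-1.47), the corepressor *Trim28* (-1.34), *Cdca7*, which recruits HELLS (-1.27), and the replication clamp *Pcna* (-1.07). Without a split gene none of the 8 was lower by at least 1, against 6.28% of all genes, and their median was -0.13. Genes of S phase, in which DNA is replicated, had a median of -1.07 with 10 of 17 expressed members lower by at least 1 and none higher, led by the primase subunit *Prim1* (-2.35), the helicase subunit *Mcm6* (-2.27) and the polymerase subunit *Pola1* (-2.10). Without a split gene their median was -0.15, and 4 were lower and 2 higher by at least 1, against 6.28% and 11.8% of all genes.

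The readers of methylated DNA did not show such differences. Of 7 expressed members none differed by 1, their median was -0.12, and the furthest below 0 was *Mbd3* (-0.49). Over all genes 6.98% were lower and 6.24% higher by at least 1. Of 6 expressed genes of oxidised base removal and demethylation, 1 differed by at least 1: *Gadd45g*, a stress-induced gene, had means of 0.49 in young and 2.80 in old cells, and was expressed in 5 of 52 and 27 of 62 cells. Among 9 expressed genes of methyl donor supply, *Mat2a*, whose product makes S-adenosylmethionine, the methyl donor of the methyltransferases, was higher in old cells (5.01 in young, 6.52 in old) and the median was -0.37. The 11 expressed genes of 2-oxoglutarate metabolism had a median of -0.45, and *Idh3g*, a subunit of the NAD-dependent enzyme of the citric acid cycle, was lower by 1.64 on the log2 scale, from 5.94 to 4.30. Without a split gene *Idh3g* differed by -0.62, while *Gadd45g* (1.72) and *Mat2a* (1.90) stayed above 1. In that comparison 11.8% of all genes were higher by at least 1.

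**Figure D5:**
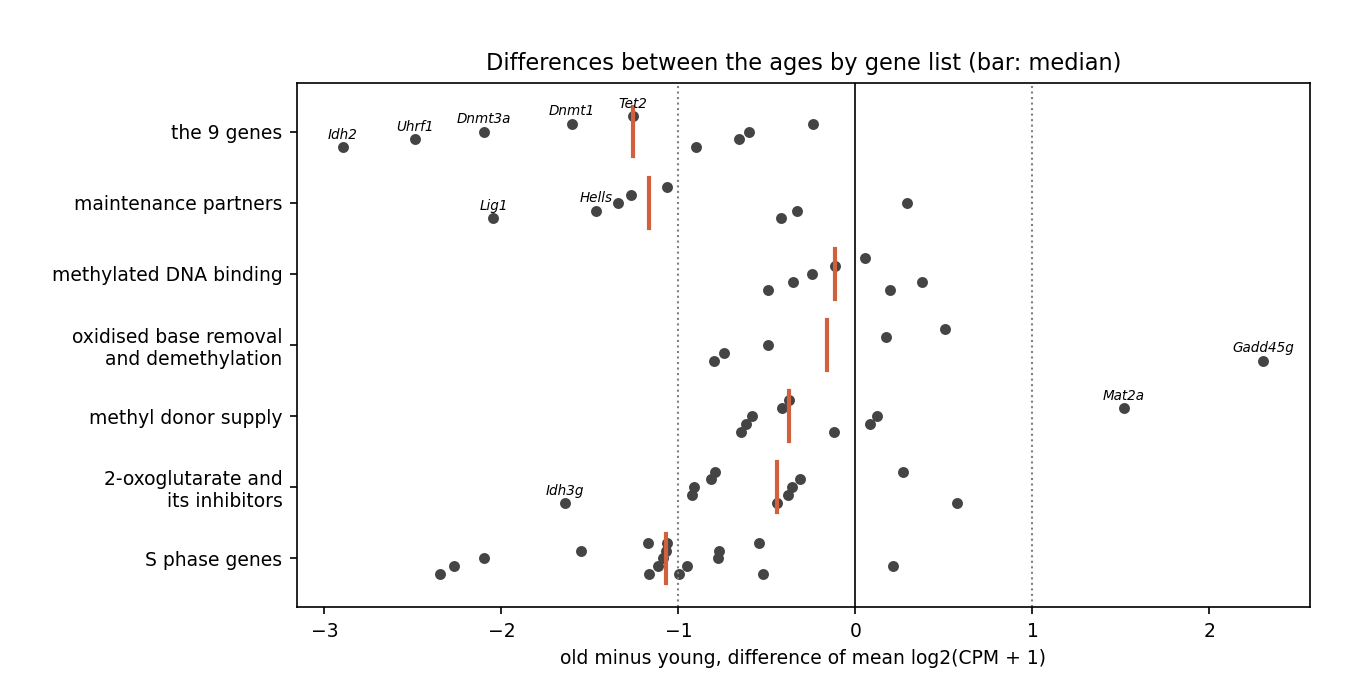
Difference between old and young mean log2(CPM + 1) for each expressed gene of the 9 and of 6 lists, with orange bars at the medians and dotted lines at -1 and 1. The 9 genes (median -1.26), the maintenance partners (-1.17) and the S phase genes (-1.07) lie lower than the other lists, and Gadd45g and Mat2a stand alone above 1.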

How the data were processed

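The authors mapped reads of full-length cDNA, which carries no molecular identifiers, to mm10 with TopHat 2.0.10 and counted them on RefSeq genes with rpkmforgenes. The deposited values are these raw counts per gene and cell, without normalization. Of 135 cells, the 114 that the study lists as meeting its quality limits were used. CPM was taken over each cell's total, levels as log2(CPM + 1) and a difference as one of means. Genes expressed in at least 10% of cells (9374) gave the background, and a difference of at least 1 was counted. No test between ages or cells was made. The highest Pearson r between any 2 cells was 0.561, and no cells had identical counts. The 9 genes, the lists and the limits were chosen with earlier results of these data known.

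Named were the 9 genes, the 4 split genes, the 5 members of a list with the largest difference or fewer, and genes with a mean within-age r of at least 0.5 to one of the 9. *Cd48*, *Slamf1*, *Klrd1*, *Hba-a1*, *Xist* and the overlapping genes were named as checks, outside this rule. Some genes that the rule names are not reported here. Alternatives covered the cells used, the pseudocount, summed reads, scaling (edgeR 4.0.16 TMMwsp and DESeq2 1.42.0 poscounts factors), thinning to 250000 reads and the limits of the split. Steps were tested on simulated data. Promoters were those of RefSeq on GRCm38, and strands, exon lengths and overlapping genes those of GENCODE. The software was R 4.3.3 and, under Python 3.11.15, scipy 1.17.1, numpy 2.4.6 and pandas 2.3.3.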

Additional observations from a re-analysis of the deposited data

How the results depend on the processing

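With 1 mouse per age, spread between animals is unknown, and amplification of little RNA per cell limits what a level of 0 means. No paired analysis was possible because each age is 1 mouse and the numbers of the cells only name them. Between 4 and 7 of the 9 genes were lower in old cells by at least 1 under the 11 alternatives, and *Idh2* (-3.96 to -1.58), *Uhrf1* (-3.66 to -1.34) and *Dnmt3a* (-3.31 to -1.02) were so under each, *Dnmt1* (-2.24 to -0.68) and *Tet2* (-1.66 to -0.49) not under each. *Tet1* (-0.87 to 0.13) and *Idh1* (-0.34 to 0.91) changed sign. Counts of all genes past 1 rose from 654 lower and 585 higher to 1485 and 1152 with a pseudocount of 0.1 CPM and to 1485 and 1476 in summed reads, and 1109 were higher among cells without a split gene. In young cells the split gave *Uhrf1* 1.5 to 3.9 and *Dnmt1* 1.34 to 2.72 over 8 alternatives. In old cells 1 of the 9 genes was higher by at least 1 with TMMwsp factors, and 1 among cells with 3500 to 4500 expressed genes (chosen after seeing the data), in place of 3. There *Dnmt3b* turned to -0.65, and to -0.41 with a split limit of 4. The causes were not tested. Counting at least 1 read as expression gave shares of 86.5% of young and 56.5% of old cells for *Idh2*, but turned the order for *Idh1*, to 55.8% and 67.7%. A limit of 1 turned it for *Tet1*, to 84.6% and 85.5%.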

Other observations

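The 9 young and 12 old cells that did not meet the quality limits had between 6331 and 5046582 and between 4610 and 5176498 counted reads. *Idh2* was expressed in 4 of the 9 young and 4 of the 12 old cells, *Dnmt3a* in 6 and 2, *Dnmt1* in 3 and 2, and *Uhrf1* in 3 and 3. *Mbd4*, a glycosylase that binds methylated DNA, was expressed in all 52 young and all 62 old cells, with means of 5.50 and 5.26, whereas none of the 9 genes was expressed in more than 73.1% of the cells of an age.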
